A study of Rattus norvegicus with 4 samples.

Results

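Nitric oxide, endothelin and natriuretic peptides set the tone of small vessels, and the genes for their synthesis, processing and receptors were followed here in nuclei of fat. The list held 10 genes: Nos1, Nos3 and Prkg1 of the nitric oxide branch, Edn1, Ece1, Ednra and Ednrb of the endothelin branch, and the natriuretic peptide receptor genes Npr1, Npr2 and Npr3. They were found by symbol among 32883 genes; 9 of the 10 were found, and Prkg1 matched no symbol and was not analysed here. The cells came from naive male Dahl salt-sensitive rats (strain SS/HsdMcwiCrl), aged 16 weeks, a strain that becomes hypertensive on a high-salt diet. All the rats shared strain, sex and age, and no treated group was included. Snap-frozen fat from around the thoracic aorta (thoracic aorta perivascular adipose tissue, taPVAT) gave 2 libraries and subscapular brown adipose tissue (BAT) gave 2. About 50 mg of tissue per library was used for 3′ droplet sequencing of nuclei. Each tissue came from 2 rats, and the labels do not say whether the same rats gave both tissues.

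Nitric oxide is made from arginine by the synthases, chiefly the endothelial form encoded by Nos3, and acts on soluble guanylate cyclase in neighbouring cells. The cyclic GMP formed activates the kinase encoded by Prkg1 and relaxes smooth muscle. Natriuretic peptides raise cyclic GMP through the membrane cyclases encoded by Npr1 and Npr2, whereas the receptor encoded by Npr3 has no cyclase domain and clears the peptides. Endothelin 1, the product of Edn1, is cut to its active form by the converting enzyme encoded by Ece1. It contracts smooth muscle through the A receptor (Ednra), while the B receptor (Ednrb) on endothelium stimulates nitric oxide release and clears endothelin. In human fat, natriuretic peptides stimulate lipolysis, which was not measured in these rats. Adipocytes carry much of the clearance receptor.

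Of these genes Ednrb had the widest fitted difference between the tissues within the 5 classes, in adipocytes. Its level in adipocyte nuclei was 23.6 and 46.6 CPM in taPVAT against 4.41 and 5.21 CPM in BAT, while pericytes of both tissues held it at 262 to 486 CPM. CPM here is a gene's share of the unique molecular identifiers (UMIs) of a class of nuclei in a library, in counts per 1000000 UMIs. Among 5 classes of nuclei Nos3 and Npr1 were highest in endothelium, where the libraries of the tissues overlapped, Ednra in pericytes and Npr3 in adipocytes. With 2 libraries per tissue, 0 genes passed an adjusted p of 0.05 in edgeR's quasi-likelihood test between the tissues in all nuclei, adipocytes, endothelium, smooth muscle, pericytes or fibroblasts. At an unadjusted p under 0.05 these 6 fits gave 473, 332, 203, 129, 184 and 471 genes, and DESeq2 called 98, 54, 12, 0, 3 and 65. A test of whether the tissue difference varied between classes did pass for Ednrb. P-values of the 6 tissue fits measure the spread between 2 libraries per tissue, each taken to be 1 sample. Tests between classes, and of the tissue difference between classes, had the library as a term. Their p-values measure the spread of class sums left after that term, not the spread between libraries of a tissue.

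The promoters of 4 genes are given because their classes of highest level differ: Ednra and Ednrb were highest in pericytes, and Nos3 and Edn1 in endothelium. Each run is the 250 bases before the RefSeq start (build GRCr8), read 5′ to 3′ on the gene's strand, with searched motifs in capitals. Ednrb lies on chr15:87086766-87087015 (minus strand), Ednra on chr19:47137674-47137923 (plus strand), Nos3 on chr4:11706582-11706831 (minus strand) and Edn1 on chr17:22666688-22666937 (minus strand).
Ednrb: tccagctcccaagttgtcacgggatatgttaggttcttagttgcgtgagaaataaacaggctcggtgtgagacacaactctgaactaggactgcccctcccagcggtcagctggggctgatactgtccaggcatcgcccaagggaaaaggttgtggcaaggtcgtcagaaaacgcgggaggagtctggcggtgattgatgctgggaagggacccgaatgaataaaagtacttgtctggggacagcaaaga
Ednra: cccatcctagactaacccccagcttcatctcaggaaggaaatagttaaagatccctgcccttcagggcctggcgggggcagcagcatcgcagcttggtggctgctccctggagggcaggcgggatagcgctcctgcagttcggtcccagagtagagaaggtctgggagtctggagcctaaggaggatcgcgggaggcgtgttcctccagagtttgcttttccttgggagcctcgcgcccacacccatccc
Nos3: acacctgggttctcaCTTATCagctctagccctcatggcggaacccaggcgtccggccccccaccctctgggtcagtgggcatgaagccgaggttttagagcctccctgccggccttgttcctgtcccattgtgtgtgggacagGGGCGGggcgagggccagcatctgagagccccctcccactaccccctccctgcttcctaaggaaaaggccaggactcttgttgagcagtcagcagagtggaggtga
Edn1: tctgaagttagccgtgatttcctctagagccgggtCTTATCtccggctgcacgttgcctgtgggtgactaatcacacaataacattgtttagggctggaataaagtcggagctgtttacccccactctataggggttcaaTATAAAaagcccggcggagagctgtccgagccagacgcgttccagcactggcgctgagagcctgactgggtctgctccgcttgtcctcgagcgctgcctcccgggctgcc

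Each window was searched on both strands for 6 motifs. The GC box, GGGCGG, is bound by Sp-family factors; it stood in 30.5% of 33469 promoters of the same length and had 1 match in Nos3. The site known for the haematopoietic and endothelial zinc finger factors, GATAAG (reverse complement CTTATC), stood in 6.18% and had 1 match in Nos3 and 1 in Edn1, both on the reverse strand. The core promoter element that positions transcription initiation, TATAAA, stood in 12.9% and had 1 match in Edn1. The nuclear receptor half-site AGGTCA stood in 14.1%, the palindromic early B-cell factor motif in 0.738% and the cyclic AMP response element (TGACGTCA) in 1.59%, with no match in these 4 windows. The windows of Ednra and Ednrb held none of the 6 motifs. These matches describe letters only, and RefSeq build GRCr8 is not the build of the count files.

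Each library held 63654436 to 158140959 UMIs over 14765 to 44637 barcodes, against a stated target of 10000 nuclei per library. After filters 11520 to 38350 nuclei per library were kept, 100716 in all. Classes were set by marker genes that include none of the listed genes: 70892 adipocytes, 8775 endothelial cells, 403 smooth muscle cells, 1945 pericytes and 4203 fibroblasts, with 15 smooth muscle nuclei in taPVAT replicate 2. Summed adipocyte markers reached 16100 to 18500 CPM in adipocytes, and summed pericyte markers 3100 to 5590 CPM in pericytes. Adipocyte markers were not limited in the other classes, whose nuclei had a median of 6 of the 12 detected in endothelium, smooth muscle, pericytes and fibroblasts alike. Adipocyte RNA was found in each of these classes: relative to adipocytes, the median over 12 adipocyte markers was 71.2% to 80.4% in endothelium, 55.1% to 74.7% in pericytes, 59.9% to 76.1% in fibroblasts and 34.7% to 68.2% in smooth muscle. A gene at or below this share of its adipocyte level is read here as background. Adipocyte nuclei had a median of 8 of the 12 markers, but the gate needed only 4, below the median of 6 in the other classes. Nuclei of other kinds with few detected markers of their own could therefore enter the adipocyte class on carried RNA. How many did so was not tested. The libraries shared 126 to 424 barcode sequences per pair. Levels of different genes are not compared with each other, since how well the molecules of each gene were captured was not measured.

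Nos3, the endothelial synthase, marked endothelium in every library. Endothelial nuclei of taPVAT held 113 and 226 CPM and those of BAT 148 and 170 CPM, from 528 to 1408 UMIs per library. The tissues overlapped, and the highest and lowest endothelial values were both from taPVAT. Pericytes came next at 2.53 to 3.42 CPM, 53.9-fold lower in the fit over classes (log2 5.75 ± 0.41 SE, edgeR adjusted p 6.57e-10), and pericytes, fibroblasts, smooth muscle and adipocytes were not separated by the test (adjusted p 0.945 to 0.988 between neighbours in order of level). In that contrast of endothelium with pericytes 22.1% of 11760 genes were called. Adipocytes set against smooth muscle, pericytes and fibroblasts, in that order, had 30.3%, 40.7% and 44.8% of genes called, and endothelium against smooth muscle 17.2%. Between the tissues, endothelial Nos3 had a log2 fold change, taPVAT over BAT, of 0.05 ± 0.37 (SE, 2 libraries per tissue). Lymphatic endothelial nuclei, a class of 296, held 26 and 7 Nos3 UMIs in taPVAT replicates 1 and 2 (34.5 and 63.7 CPM) and 0 in both BAT libraries, which had few such nuclei.

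Nos1, the neuronal synthase, showed no step between neighbouring classes that passed among the 5. Over all nuclei its level was 5.48 and 2.58 CPM in taPVAT and 5.36 and 2.63 CPM in BAT, so that both replicate 2 libraries were lower by about the same factor (0.470 and 0.490 of replicate 1). Its order ran from smooth muscle through pericytes, endothelium and fibroblasts to adipocytes, with class means of 6.95 down to 3.84 CPM, and no step between neighbours passed (edgeR adjusted p 0.575 to 0.917). The tissue difference over all nuclei was 0.04 ± 0.51 on the log2 scale. Lymphatic endothelial nuclei, outside the 5 classes, held 12.0 and 45.5 CPM in taPVAT, from 9 and 5 UMIs, and 1 and 0 UMIs in BAT.

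The endothelin ligand gene Edn1 was barely detected in nuclei. All nuclei together gave 55 and 6 UMIs in taPVAT and 20 and 4 UMIs in BAT. Endothelium held most of them, 36, 4, 17 and 1 UMIs in taPVAT replicates 1 and 2 and BAT replicates 1 and 2, or 2.90, 1.71, 2.41 and 0.129 CPM. Most of these UMIs came from the 2 replicate 1 libraries, and the BAT replicate 2 value rests on 1 molecule. Its tissue difference in endothelium, 0.99 ± 1.01 on the log2 scale, was no larger than its error. Smooth muscle nuclei held 0 Edn1 UMIs in all 4 libraries, which allows up to 5.76 CPM in the deepest of these sums and 86.4 CPM in the shallowest (3 UMIs).

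Ece1, which encodes the converting enzyme, differed more between replicate numbers than between tissues. In adipocytes it stood at 147 and 470 CPM in taPVAT and at 205 and 624 CPM in BAT, so replicate 2 exceeded replicate 1 by 3.19-fold in taPVAT and 3.05-fold in BAT. The same split was seen in endothelium (185, 483, 265 and 571 CPM in taPVAT replicates 1 and 2 and BAT replicates 1 and 2) and in pericytes (104, 243, 114 and 479 CPM). Within a replicate number, BAT was higher than taPVAT both times in each of the 5 classes (in adipocytes log2 taPVAT over BAT of -0.48 and -0.41), while the fitted tissue difference in adipocytes had an error larger than itself (-0.38 ± 0.75). The labels give no date or batch for a replicate number, and whether a technical difference goes with it was not tested. In order of level no step between neighbours passed for Ece1 from smooth muscle through endothelium and adipocytes to fibroblasts (adjusted p 0.173 to 0.964), and pericytes were 1.44-fold below fibroblasts (edgeR adjusted p 0.00327; 16.5% of genes called in that contrast). In pericytes Ece1 lay below the level that adipocyte RNA would carry in 3 of 4 libraries, by 4.36 to 15.7 CPM, and 13.2 CPM above it in BAT replicate 2. The tissue difference of Ece1 in pericytes was -0.85 ± 0.62 on the log2 scale (edgeR adjusted p 0.999). With BAT replicate 1 left out it was -1.56, but BAT replicate 2 was then set alone against both replicate numbers of taPVAT.

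**Figure D1:**
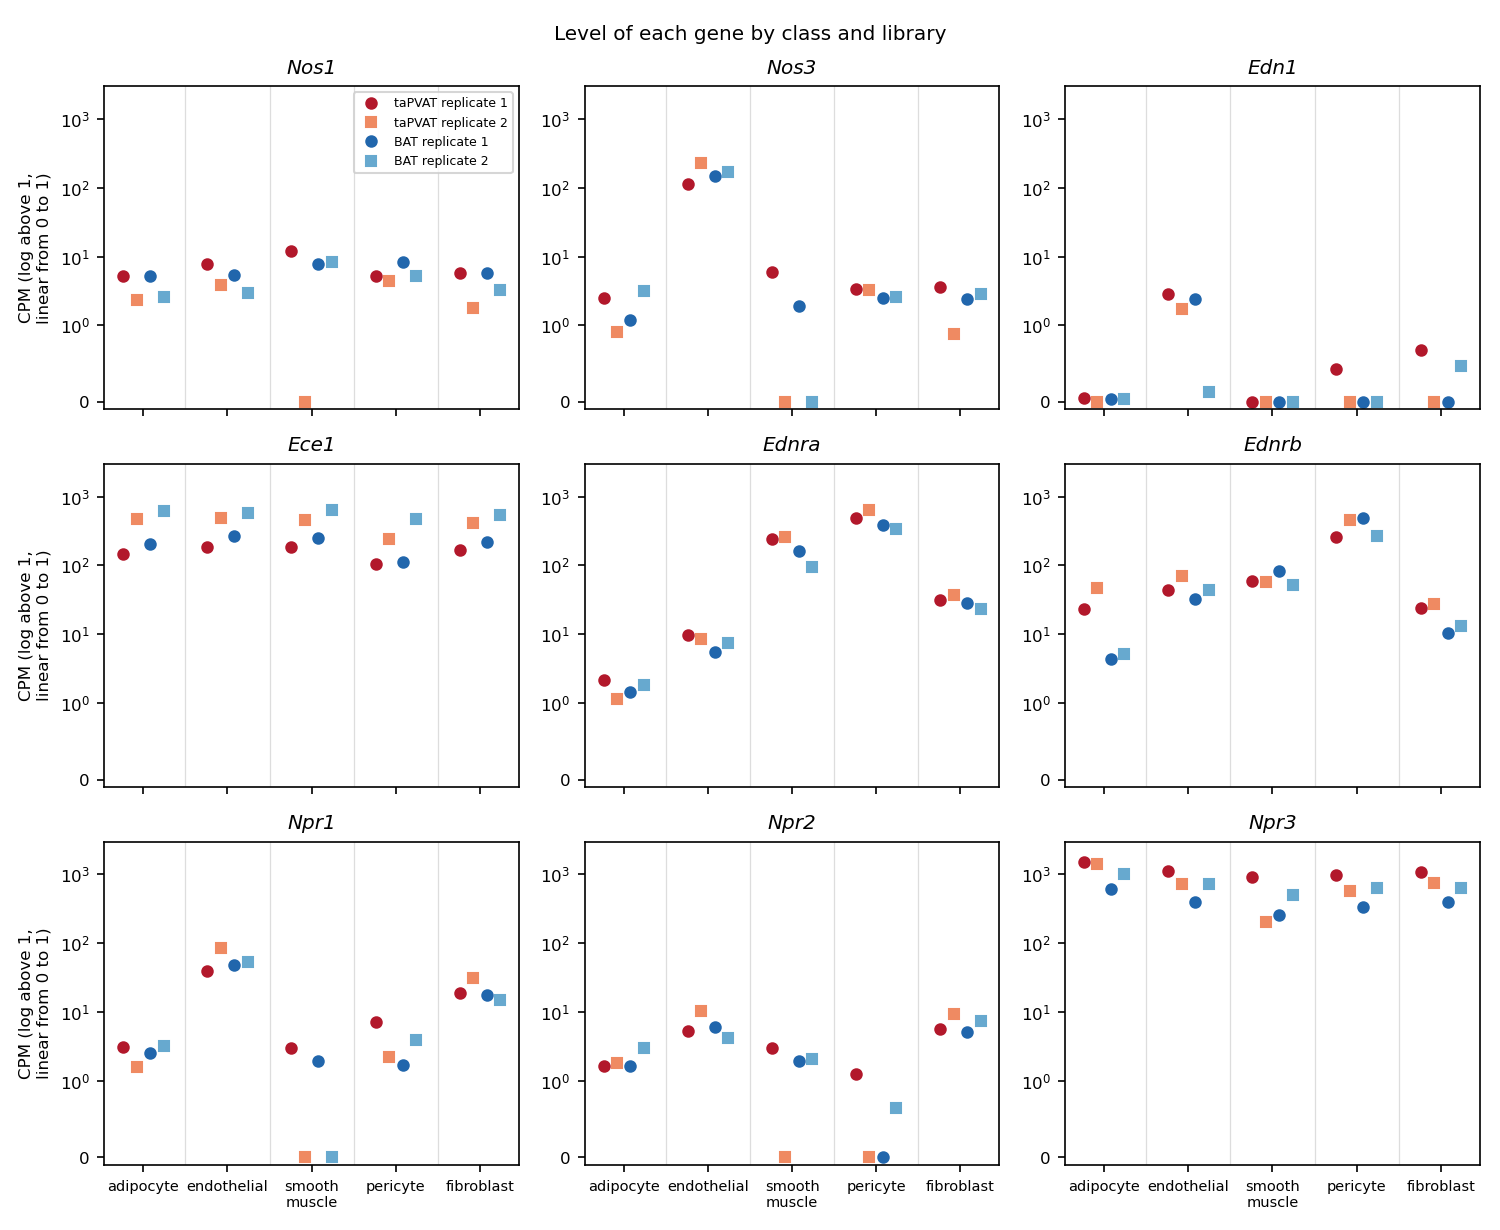
Level of the 9 genes in 5 classes of nuclei, in CPM on an axis that is logarithmic above 1 and linear below it. Each point is 1 library (circles replicate 1, squares replicate 2, red and orange taPVAT, dark and light blue BAT). Nos3 stands out in endothelium, Ednra and Ednrb in pericytes, Ece1 separates by replicate number in every class, and Ednrb separates by tissue in adipocytes.

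Ednra, the receptor that mediates endothelin contraction, was a mural gene. Pericytes held it at 484 and 638 CPM in taPVAT and 393 and 344 CPM in BAT, and smooth muscle at 244 and 259 CPM in taPVAT and 163 and 96.3 CPM in BAT, from 9 to 85 smooth muscle UMIs per library. The taPVAT libraries lay above both BAT libraries in either class. The tissue differences, 0.58 ± 0.32 in pericytes and 0.85 ± 0.43 in smooth muscle on the log2 scale, did not pass (edgeR adjusted p 0.999 and 1; unadjusted p 0.103 and 0.0702). Non-overlapping libraries were no rarity, since 24.9% of genes in pericytes and 28.9% in smooth muscle did not overlap, in one direction or the other.

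The order of Ednra levels was steep and each step passed in the fit over classes. Pericytes exceeded smooth muscle 2.77-fold (edgeR adjusted p 1.66e-05; 11.4% of genes called in that contrast), and smooth muscle exceeded fibroblasts 5.79-fold (adjusted p 2.71e-08; 14.3% called). Fibroblasts, at 31.5, 37.5, 28.3 and 23.4 CPM in taPVAT replicates 1 and 2 and BAT replicates 1 and 2, exceeded endothelium 3.74-fold (adjusted p 3.68e-07; 22.9% called). Summed pericyte markers stood at 353 to 464 CPM in fibroblasts and 56.8 to 97.4 CPM in endothelium, against 3100 to 5590 CPM in pericytes. How much Ednra pericyte RNA carried in fibroblasts and endothelium was not tested. Their levels, and the steps above and below them, may therefore rest on carried RNA in part or in full. Adipocytes were lowest at 1.15 to 2.19 CPM, with tissues overlapping. The adipocyte values lie below what pericyte RNA would carry there (1.88 to 5.94 CPM), when the summed level of 9 pericyte markers in adipocytes is taken as the share of pericyte RNA, so adipocyte Ednra is read as background.

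Ednrb, the receptor known from endothelium for release of nitric oxide and clearance of endothelin, was also highest in pericytes. Its pericyte level was 262 and 461 CPM in taPVAT and 486 and 265 CPM in BAT, with one low and one high library in each tissue, and the tissue difference was -0.07 ± 0.39 on the log2 scale. Smooth muscle held 51.2 to 82.5 CPM, from 2 UMIs in taPVAT replicate 2, and endothelium 44.3, 69.6, 32.4 and 43.6 CPM in taPVAT replicates 1 and 2 and BAT replicates 1 and 2. Pericytes exceeded smooth muscle 5.14-fold (edgeR adjusted p 0.00525), whereas smooth muscle over endothelium did not pass (adjusted p 0.523). Endothelium exceeded adipocytes 2.76-fold over the 4 libraries (adjusted p 0.00539; 48.8% of genes called in that contrast). This fold averages over unlike tissues: the endothelial level was 188% and 149% of the adipocyte level in taPVAT and 733% and 837% in BAT.

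In adipocytes the 2 taPVAT libraries held 2138 and 1943 Ednrb UMIs and the 2 BAT libraries 401 and 271. These were 23.6 and 46.6 CPM against 4.41 and 5.21 CPM, means of 35.1 ± 16.3 and 4.81 ± 0.56 CPM (SD, n = 2 each). The lower taPVAT library was 4.52-fold above the higher BAT library, and the groups did not overlap. The fitted difference was 7.58-fold (log2 2.92 ± 0.45 SE; edgeR unadjusted p 0.000723, adjusted p 0.591). Other fits did pass: the adjusted p was 1.95e-06 with DESeq2 and 0.00063 in edgeR with no filter on low counts. Leaving out BAT replicate 1 gave an edgeR adjusted p of 0.0146 and leaving out BAT replicate 2 gave 0.000879, with the lone BAT library assumed to vary like the taPVAT libraries. Leaving out a taPVAT library gave 0.12 (replicate 1) and 0.501 (replicate 2). Of 8 listed genes that passed the low-count filter in adipocytes, Ednrb and Npr3 did not overlap between the tissues, both higher in taPVAT, beside 19.9% of 15532 genes in either direction and 9.07% higher in taPVAT, and 0% of genes passed the adjusted threshold. At an unadjusted p under 0.05 the same 2 of 8 genes and 2.14% of all genes were found.

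Whether the tissue difference varied between the 5 classes was tested in 1 fit of 20 class sums, with the library as a term. It did for Ednrb (edgeR F 20.2, adjusted p 0.0208), one of 6 genes called among 11760 (0.051%); the other members tested were at an adjusted p of 1. Compared with pericytes, the adipocyte difference was larger by 2.92 ± 0.35 on the log2 scale (adjusted p 0.00405 over genes within this contrast, where 0.0255% were called). Against endothelium it was larger by 2.30 ± 0.36 (adjusted p 0.0958), against smooth muscle by 2.91 ± 0.54 (adjusted p 0.139) and against fibroblasts by 1.61 ± 0.42 (adjusted p 0.454), which did not pass. The test over 5 classes rests on particular libraries: the adjusted p was 0.0518 without taPVAT replicate 1 and 0.200 without BAT replicate 1, and 0.00134 and 0.00137 without taPVAT replicate 2 and BAT replicate 2. With 1 more marker needed for a class it was 0.0535. The contrast of adipocytes with pericytes had an adjusted p of 0.0554 without BAT replicate 1.

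Levels of pericyte RNA in the adipocyte class were measured, since pericytes hold the most Ednrb. The 9 pericyte markers stood in adipocytes at 0.958% and 0.512% of their pericyte level in taPVAT and at 0.479% and 1.73% in BAT, and none of them was at 0 in any library. At those shares pericyte RNA would carry 2.51 and 2.36 CPM of Ednrb in taPVAT adipocytes and 2.33 and 4.57 CPM in BAT adipocytes. The gate allowed adipocyte nuclei at most 1 detected pericyte marker, so it limited these shares in advance. The measured levels were 23.6 and 46.6 CPM in taPVAT, and 4.41 and 5.21 CPM in BAT. The same shares would carry 4.64, 3.27, 1.88 and 5.94 CPM of Ednra in taPVAT replicates 1 and 2 and BAT replicates 1 and 2, more than the 2.19, 1.15, 1.45 and 1.85 CPM measured, so they overstate the RNA carried for that gene. Among adipocyte nuclei without a single detected marker of any other class, a restriction chosen after seeing the data, the tissue difference was 2.79 ± 0.45 on the log2 scale. That restriction acts on the same markers as the gate.

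Ednrb molecules were detected in a minority of adipocyte nuclei. The UMIs were far fewer than the nuclei, 2138 over 25596 and 1943 over 8050 in taPVAT. Most nuclei would therefore lack a UMI even at an even level, and the shares do not count expressing cells. In taPVAT 1664 of 25596 and 1117 of 8050 adipocytes had at least 1 UMI (6.50% and 13.9%), against 325 of 20652 and 246 of 16594 in BAT (1.57% and 1.48%). With every nucleus thinned to 1500 UMIs, the shares were 2.97% and 4.98% in taPVAT and 0.612% and 0.687% in BAT; 2971, 224, 1048 and 1591 shallower nuclei were left out in taPVAT replicates 1 and 2 and BAT replicates 1 and 2, where adipocytes had a median of 3010, 4810, 3740 and 2700 UMIs. The same thinning gave 31.9% to 51% in pericytes of the 4 libraries. For Ednra, whose adipocyte level is read as background, the thinned adipocyte share was 0.179% to 0.318% in all libraries. In taPVAT the 314 and 425 adipocyte nuclei with 2 or more Ednrb UMIs held 36.9% and 64.4% of the Ednrb UMIs of the class. Intervals and shares from counts cover counting error only.

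**Figure D2:**
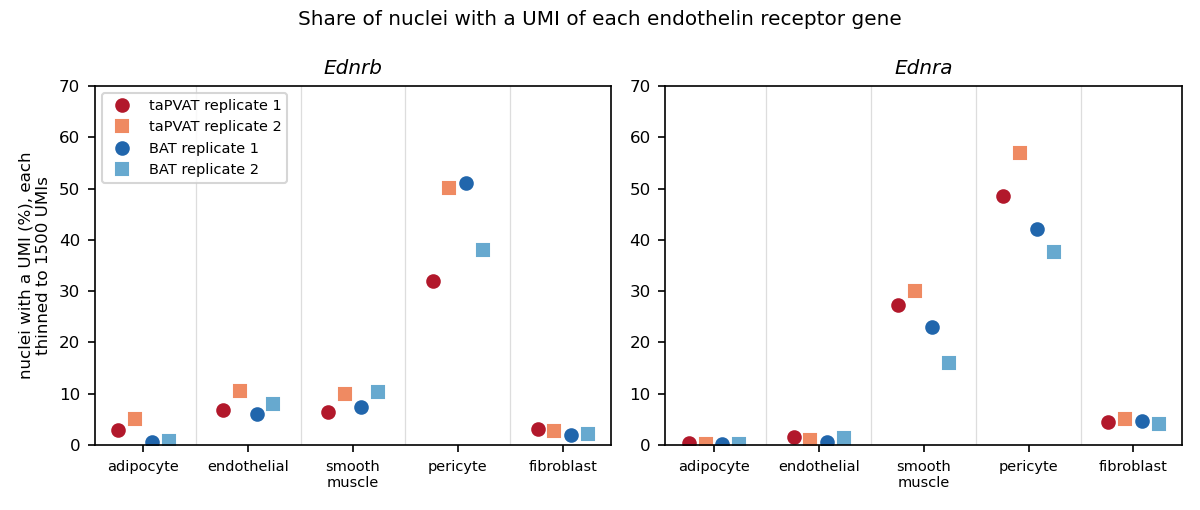
Share of nuclei with at least 1 UMI of Ednrb (left) and Ednra (right) after thinning each nucleus to 1500 UMIs, in percent, for 5 classes. Each point is 1 library. The adipocyte points for Ednrb lie at 2.97% and 4.98% in taPVAT and at 0.612% and 0.687% in BAT, while those for Ednra lie near 0 in all 4 libraries.

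Ednrb levels were set beside each other in adipocyte nuclei with and without a detected molecule of Ucp1, the thermogenic uncoupling protein gene of brown adipocytes. In taPVAT replicate 1 adipocytes with and without a Ucp1 UMI held 23.5 and 24.1 CPM, and in taPVAT replicate 2 they held 47.5 and 42.6 CPM. The exact Poisson intervals (95%, counting error only) of the members of each pair overlapped, 22.5 to 24.6 with 20.8 to 27.7 CPM and 45.2 to 49.9 with 38.1 to 47.5 CPM. In BAT the levels were 4.31 and 6.88 CPM in replicate 1, and 4.98 and 6.04 CPM in replicate 2, with and without a Ucp1 UMI. The BAT intervals overlapped too, 3.88 to 4.77 with 4.49 to 10.1 CPM and 4.32 to 5.72 with 4.7 to 7.64 CPM. Overlap of such intervals does not show equal levels.

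The taPVAT libraries also lay above the BAT libraries for Ednrb in fibroblasts and endothelium, classes that hold adipocyte RNA. Fibroblasts held 24 and 27.8 CPM in taPVAT and 10.6 and 13.1 CPM in BAT (log2 1.10 ± 0.32; edgeR adjusted p 0.663, unadjusted p 0.0126). At the median adipocyte marker share, adipocyte RNA alone would carry 17.9 and 27.9 CPM in taPVAT fibroblasts and 3.3 and 3.78 CPM in BAT fibroblasts. The remainder was 6.07 and -0.0955 CPM in taPVAT and 7.27 and 9.34 CPM in BAT. It rests on the median share. Single markers ranged from 44.8% to 93.4% and from 0% to 107% in taPVAT fibroblasts. In BAT fibroblasts they ranged from 66.4% to 97.2% and from 0% to 95.6%. The order of the tissues in this remainder is therefore not settled, and pericyte RNA was not subtracted. In endothelium the remainder was 25.4, 36.0, 29.2 and 39.7 CPM in taPVAT replicates 1 and 2 and BAT replicates 1 and 2, overlapping between the tissues. Outside the 5 classes, T or NK lymphocyte nuclei held 19.8 and 39.4 CPM of Ednrb in taPVAT and 5.51 and 6.16 CPM in BAT (1 to 12 UMIs), and myeloid nuclei 33.4 and 37.2 against 14.1 and 23.3 CPM (6 to 18 UMIs). Relative to adipocytes of the same library, T or NK Ednrb stood at 84.2%, 84.5%, 125% and 118% in taPVAT replicates 1 and 2 and BAT replicates 1 and 2, where the adipocyte markers had a median of 83.3%, 54.7%, 68% and 65.7%. For myeloid nuclei Ednrb stood at 142%, 79.8%, 319% and 447%, and the markers at 82.3%, 65%, 75.8% and 79.3%. The T or NK value of taPVAT replicate 1 was next to its marker share, and the other values of both classes were above theirs. Of 8 fibroblast members that passed the filter, Ednra, Ednrb, Npr1 and Npr3 did not overlap and were all higher in taPVAT, beside 14.3% of genes higher and 24.7% in either direction. Fibroblast Npr3 lay below the level that adipocyte RNA would carry in all 4 libraries, and fibroblast Ednrb lay near it in taPVAT. The count therefore includes genes whose fibroblast level may be carried RNA. In endothelium Ednra and Ednrb, 2 of 9, did not overlap, beside 20.2% of genes.

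**Figure D3:**
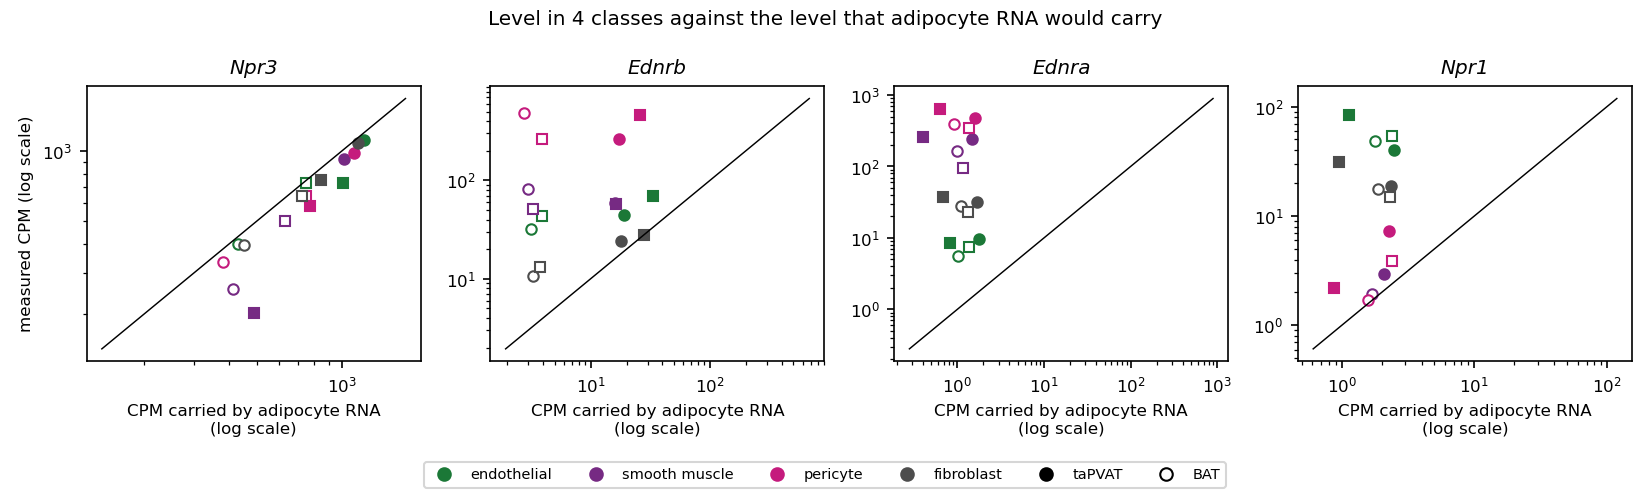
Measured level of Npr3, Ednrb, Ednra and Npr1 in endothelium, smooth muscle, pericytes and fibroblasts (vertical axis, CPM, log scale) against the level that adipocyte RNA would carry (horizontal axis, CPM, log scale: adipocyte level times the median share of 12 adipocyte markers). Points are class sums of 1 library, coloured by class and filled for taPVAT and open for BAT (circles replicate 1, squares replicate 2), the line marks equality, and sums with 0 UMIs are left out. All Npr3 points lie on or below the line, and the taPVAT fibroblast points of Ednrb lie near it, whereas the pericyte points of Ednrb and Ednra lie far above.

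Npr3, the clearance receptor gene, was an adipocyte gene in these nuclei. Adipocytes held it at 1500 and 1410 CPM in taPVAT and at 604 and 998 CPM in BAT, means of 1450 ± 65.0 and 801 ± 278 CPM (SD, n = 2 each). Both taPVAT libraries were above both BAT libraries, by 1.41-fold at the closest. The fitted difference was 1.85-fold (log2 0.89 ± 0.35; edgeR unadjusted p 0.0477, adjusted p 1), and within the replicate numbers the log2 ratio was 1.31 and 0.49. Adipocytes with no Ucp1 UMI held 1110 and 1270 CPM in taPVAT and 280 and 856 CPM in BAT, each below the adipocytes with a Ucp1 UMI of the same library (1530, 1440, 618 and 1040 CPM in the same order). Nuclei with no Ucp1 UMI were shallower on average. How many of them were nuclei of other kinds with carried RNA was not tested. Endothelium, the next class, was 1.69-fold lower (adjusted p 0.000353), and no step between neighbours in order of level passed among the other 4 classes (adjusted p 0.194 to 0.888), though endothelium over smooth muscle did (1.48-fold, adjusted p 0.0229). In all of these 4 classes and all 4 libraries Npr3 lay below the level that adipocyte RNA would carry, by 17.3 CPM or more, and is read as background there. Their tissue differences were 0.61 to 0.77 on the log2 scale.

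Npr1, the cyclase receptor for atrial natriuretic peptide, was highest in endothelium among the 5 classes. Its endothelial level was 39.8 and 84.6 CPM in taPVAT and 48.8 and 53.3 CPM in BAT, with the tissues overlapping (log2 0.24 ± 0.38). Fibroblasts followed at 18.6, 30.9, 17.7 and 15.0 CPM in taPVAT replicates 1 and 2 and BAT replicates 1 and 2, 2.74-fold lower (edgeR adjusted p 9.69e-05; 22.9% of genes called), and pericytes lay a further 4.32-fold below fibroblasts (adjusted p 0.000718). The tissue difference in fibroblasts was 0.54 ± 0.35 on the log2 scale. Myeloid nuclei, which are not among the 5 classes, held 31.6, 34.7, 26.6 and 27.2 CPM in that order of libraries, from 7 to 17 UMIs. The 21 mesothelial nuclei, all from taPVAT, held 112 and 68.8 CPM from 6 and 1 UMIs, with exact Poisson intervals of 41.3 to 245 and 1.74 to 383 CPM, against 39.8 and 84.6 CPM in taPVAT endothelium. Adipocytes had 1.58 to 3.21 CPM, and no step between neighbours among pericytes, adipocytes and smooth muscle passed (adjusted p 0.298 and 0.656).

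Npr2, the cyclase receptor for C-type natriuretic peptide, stood at 10.3 CPM or less in each of the 5 classes. Fibroblasts held 5.62, 9.27, 5.08 and 7.50 CPM and endothelium 5.31, 10.3, 6.10 and 4.26 CPM in taPVAT replicates 1 and 2 and BAT replicates 1 and 2. The step between these classes did not pass (edgeR adjusted p 0.911), and endothelium was 2.77-fold above adipocytes (adjusted p 7.28e-05), which held 1.65 to 3 CPM. Lymphatic endothelial nuclei of taPVAT held 29.2 and 91.0 CPM, from 22 and 10 UMIs, and those of BAT gave 1 and 0 UMIs. These taPVAT values were above all values of the 5 classes. Tissue differences were 0.49 ± 0.45 in endothelium and 0.20 ± 0.47 in fibroblasts on the log2 scale.

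**Figure D4:**
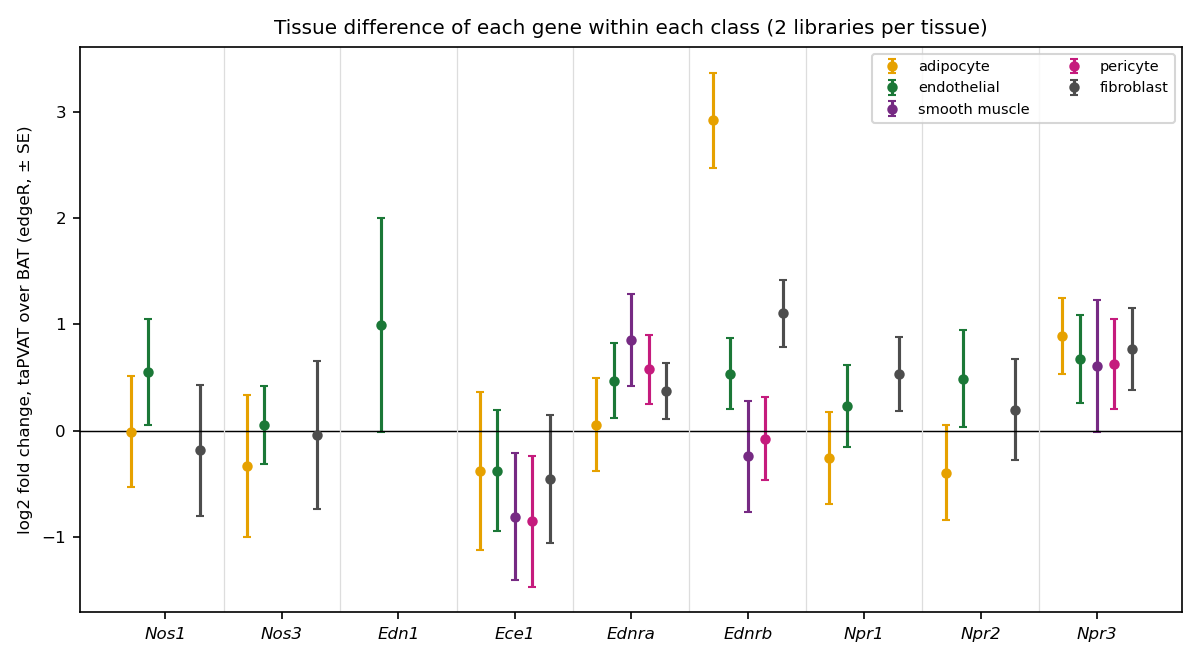
Log2 fold change, taPVAT over BAT, of each gene within each class (edgeR, points with bars of 1 SE, 2 libraries per tissue); a gene that did not pass the low-count filter of a class has no point there. The adipocyte value of Ednrb, 2.92, is the highest, Ece1 is below 0 in all classes with bars of 0.57 or more, and no point passed an adjusted p of 0.05.

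The genes around these members in the same pathways were read from a list of 46, which includes the 10. In the 6 fits (all nuclei, adipocytes, endothelium, smooth muscle, pericytes and fibroblasts) 30, 28, 23, 16, 22 and 21 of the other 36 genes passed the low-count filter, and 0 were called in either direction by edgeR (0% of all genes were called). Their median log2 fold changes were 0.10, 0.06, -0.06, 0.09, 0.11 and 0.15, beside -0.0012, 0.0059, -0.0092, -0.06, 0.0037 and -0.02 over all genes tested. The members that passed the filter had medians of 0.04, -0.13, 0.49, 0.18, 0.25 and 0.29. At an unadjusted p under 0.05 the other genes of the list numbered 0, 0, 0, 1, 2 and 1 and the members 2, 2, 0, 0, 0 and 1, beside 2.85%, 2.14%, 1.65%, 2.15%, 2.05% and 4.21% of all genes. The ligand genes Nppa, Nppb and Edn2 had 0 UMIs in every library, which allows 3 UMIs in each.

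Gucy1a1, which encodes a subunit of soluble guanylate cyclase, stood at 247 and 142 CPM in taPVAT pericytes and at 226 and 77.4 CPM in BAT pericytes, with the tissues overlapping. Gucy1a2, which encodes another subunit, had the smallest p of the other genes in smooth muscle, at 649 and 1010 CPM in taPVAT and 422 and 281 CPM in BAT (log2 1.08 ± 0.47, edgeR adjusted p 1, 35 UMIs in taPVAT replicate 2). Pde5a, the phosphodiesterase that breaks down cyclic GMP and is the target of sildenafil, stood there at 203 and 519 CPM in taPVAT and 165 and 115 CPM in BAT (log2 1.04 ± 0.49). In both genes the taPVAT libraries were above the BAT libraries, as in 15.3% of genes of that class.

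In the other classes the 2 genes of smallest p were as follows. In pericytes Pde1c, a calcium-dependent phosphodiesterase gene, was at 2.14 and 1.10 CPM in taPVAT and at 7.60 and 16.3 CPM in BAT (log2 -2.75 ± 0.73, edgeR adjusted p 0.999, and 0.0335 with no filter on low counts), from 1 to 25 UMIs. Slc7a1, a transporter gene of arginine, was at 7.26 and 14.2 against 16.9 and 29.9 CPM in pericytes (log2 -1.29 ± 0.51). Both BAT libraries were above both taPVAT libraries. Endothelium, whose class means were 65.9 CPM for Pde1c and 48.7 CPM for Slc7a1, held more of both than pericytes at 6.77 and 17.1 CPM. In fibroblasts Ddah1, which degrades an inhibitor of the synthases, had 5.96 and 6.18 CPM in taPVAT and 0.203 and 2.81 CPM in BAT (log2 2.36 ± 0.95), the BAT replicate 1 value from 1 UMI. Its edgeR adjusted p was 1, and it was 0.0379 with no filter on low counts and 0.0212 without BAT replicate 2 (log2 4.73). Pde1a had a log2 difference of -0.89 ± 0.42 in fibroblasts.

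In adipocytes Pde9a, a cyclic GMP phosphodiesterase gene, stood at 15.4 and 17.0 CPM in taPVAT and at 10.0 and 10.8 CPM in BAT (log2 0.68 ± 0.28, edgeR adjusted p 1). Vasp, a substrate of the cyclic GMP kinase, followed with a log2 difference of 0.65 ± 0.30 in adipocytes and 0.54 ± 0.26 over all nuclei. In endothelium Gucy1a2 and Pde1c differed by 0.49 ± 0.29 and 0.54 ± 0.33 on the log2 scale, and over all nuclei Gucy1a2 by 0.48 ± 0.24. Over all nuclei Ednra, Ednrb and Npr3, 3 of the 9 members, did not overlap and were higher in taPVAT, beside 11% of genes. There Ednrb stood at 31.9 and 53.6 CPM in taPVAT and 13.4 and 17.6 CPM in BAT (log2 1.49 ± 0.36, edgeR adjusted p 0.941). In sums over mixed nuclei, fewer cells of a type and less RNA per cell cannot be told apart.

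The genes whose levels most resembled each member over the 20 sums of 5 classes and 4 libraries were found by Pearson correlation of log2(CPM + 1) among 10779 genes; they share libraries and depth, and the values describe these sums only. For Nos3 they were Ppp1r16b, Kank3 and Ano2 (r of 0.988, 0.976 and 0.974), and for Npr1 they were Fbln5, Heg1 and Ltbp4 (0.939, 0.933 and 0.930). Ednra was nearest to AABR07068161.1 and AABR07006724.1 (0.994 and 0.984), and Ednrb to Chn1, Nostrin and Klhl29 (0.912, 0.910 and 0.891). Npr3 was nearest to Atrnl1, Gmpr and Nudt7 (0.951, 0.931 and 0.908), Npr2 to Emp1, Fbln2 and Gask1b (0.882, 0.881 and 0.877), and Nos1 to AABR07002774.2, Slc18b1 and Lmln (0.913, 0.904 and 0.902). The 3 nearest to Ece1 were Homer1, Nr4a1 and Rad23b (0.95, 0.941 and 0.910). Homer1 and Nr4a1 are known as immediate early genes. Edn1 did not reach the minimum level for this comparison.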

How the data were processed

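Counts of UMIs per gene and barcode were deposited for 4 libraries of nuclei, made with Cell Ranger 7.1.0 and build Rnor_6.0 per the submitters' processing notes; how introns were counted is not given in the sources used here. The listed genes, gene lists and gates were chosen with earlier results of these data known. Barcodes with 500 or more detected genes were kept, and doublets called by Scrublet (scanpy 1.11.5) were removed: 10.8% in taPVAT replicate 1, 6.61% in taPVAT replicate 2 and 15.3% in BAT replicate 2. In BAT replicate 1 it called 0, so the 6402 barcodes of highest score (18.5%) were removed there. A nucleus entered a class other than adipocytes with 3 or more detected markers, and 2 more than of any other such class (1 between smooth muscle and pericyte), whatever its adipocyte markers. Lymphatic nuclei needed no margin over blood endothelial markers, and blood endothelial nuclei had fewer than 3 lymphatic ones. Adipocytes had 4 or more adipocyte markers and at most 1 marker of each other class. Raw counts were summed per library and class and tested with edgeR 4.0.16 (R 4.3.3; quasi-likelihood test, TMM, filterByExpr, Benjamini-Hochberg adjustment over all genes tested). CPM are not TMM-scaled, and intervals are exact Poisson (95%). Alternatives were DESeq2 1.42.0, no filter, a replicate block, each library left out, 1000 genes, no doublet removal, 1 more marker and lymphatic nuclei included; 2 were chosen after seeing the data. All members are named, and of the wider list the 2 genes of smallest p per fit, as none passed; other genes named were chosen after their values were seen. The count test was tested on simulated data. One gene that the rule for similar patterns named is not reported here.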

Additional observations from a re-analysis of the deposited data

Results flagged for a closer look

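The tissue difference of Ednrb varied between the 5 classes of nuclei in the edgeR F test of class by tissue (adjusted p 0.0208 over 11760 genes). It was 2.92 ± 0.45 on the log2 scale in adipocytes, with both taPVAT libraries above both BAT libraries, and -0.07 ± 0.39 in pericytes, where the libraries overlapped. The call was lost without taPVAT replicate 1 (adjusted p 0.0518), without BAT replicate 1 (0.200) and with 1 more marker needed for a class (0.0535).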

How the results depend on the processing

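Tissue differences of the members were recomputed under 424 alternatives: 363 kept direction and side of the threshold, 10 newly passed it and 51 changed sign. Genes called in all nuclei, adipocytes, endothelium, pericytes and fibroblasts rose from 0 to 98, 54, 12, 3 and 65 with DESeq2. With no filter on low counts they were 60, 37, 29, 30 and 226, and 2 in smooth muscle; 1 more marker gave 10 in fibroblasts. Leaving out 1 library gave 0 to 102, 0 to 66, 1 to 40, 5 to 71 and 1 to 124 in those classes, and 0 to 11 in smooth muscle. The test across classes called 6 genes, 1 with 1 more marker (Ednrb adjusted p 0.0535) and 0 to 40 with a library left out (Ednrb 0.00134 to 0.200). The cause was not tested.

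With the replicate number as a block, 386, 321, 176, 6 and 378 genes were called and 0 in smooth muscle. The adjusted p was 4.3e-07 for Ednrb in adipocytes (log2 2.83), 0.000569 over all nuclei (1.45) and 0.0209 in fibroblasts (1.12), 0.0124 for adipocyte Npr3 (0.94) and 0.031 for Npr3 over all nuclei (0.92); Nos3 turned to -0.02 in endothelium and 0.02 in fibroblasts. Deviations of same-numbered libraries correlated at 0.66 in all nuclei, 0.62 in adipocytes, 0.58 in endothelium, 0.16 in smooth muscle, 0.33 in pericytes and 0.56 in fibroblasts. There are only 2 pairs and the labels do not establish a pairing.

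Other sign changes were small: Npr1 in all nuclei -0.0049 with DESeq2 and -0.05 at 1000 genes; Nos1 in adipocytes 0.00056 at 1000 genes, 0.02 without doublet removal and 0.13 in adipocytes without other markers, where Npr2 was 0.08. Nos3 was -0.01 in endothelium with lymphatic nuclei and 0.14 in fibroblasts without doublet removal, and pericyte Ednrb was 0.08 at 1000 genes and 0.01 with 1 more marker.

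With 1 library left out, these log2 differences spanned 0 or turned. Over all nuclei they were -0.33 to 0.41 for Npr1, -0.95 to 0.28 for Nos3, -0.42 to 0.29 for Npr2, -1.45 to 0.59 for Ece1, -0.10 to 2.25 for Edn1 and -0.63 to 0.58 for Nos1. In adipocytes they were -0.81 to 0.10 for Npr1, -1.21 to 0.58 for Nos3, -0.85 to 0.14 for Npr2, -1.51 to 0.70 for Ece1, -0.47 to 0.41 for Ednra and -0.69 to 0.51 for Nos1. In endothelium they were -0.37 to 0.68 for Npr1, -0.51 to 0.46 for Nos3, -1.21 to 0.34 for Ece1 and -0.15 to 0.99 for Nos1. In smooth muscle they were -1.20 to 1.23 for Npr3, -1.36 to 0.15 for Ece1 and -0.49 to 0.09 for Ednrb, and in pericytes -1.61 to 0.61 for Ece1 and -0.56 to 0.36 for Ednrb. In fibroblasts they were 0.08 to 0.44 for Nos3, -0.17 to 0.56 for Npr2, -1.26 to 0.43 for Ece1 and -1.40 to 0.30 for Nos1. Each such fit applied its own low-count filter, so a range covers only the fits that kept the gene. The Nos3 range lies above 0, yet taPVAT replicate 2 fibroblasts held 0.883 CPM, below the 2.44 and 2.81 CPM of BAT. Npr2 in fibroblasts over endothelium ranged from -0.11 to 0.24. Smooth muscle rests on 403 nuclei, 15 of them in taPVAT replicate 2.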

Other observations

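Adipocyte nuclei with 2 or more Ednrb UMIs were set beside those with none, a split chosen after the values were seen and given as values only. In taPVAT replicates 1 and 2 there were 314 and 425 such nuclei. Their summed adipocyte markers stood at 16200 and 16700 CPM, against 16100 and 16800 CPM in nuclei with none. Summed pericyte markers stood at 34.0 and 19.0 CPM, against 34.2 and 30.4 CPM. Ush1c stood 1.71-fold and 1.84-fold higher in the nuclei with 2 or more Ednrb UMIs. Ush1c and Enpep were picked from the top of a ranking of 5695 genes by this same ratio, so high values were selected for. Enpep, which encodes the aminopeptidase that cleaves angiotensin II, stood at 286 and 533 CPM against 174 and 346 CPM. Nuclei with more Ednrb UMIs were deeper, with medians of 4680 and 6210 UMIs against 2950 and 4670.

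Ednrb was also found in lymphatic endothelial nuclei, at 77.1 and 200 CPM in taPVAT (58 and 22 UMIs), and at 0 and 3 UMIs in the small BAT sums. Npr2 in Schwann nuclei had 3, 2, 4 and 0 UMIs in taPVAT replicates 1 and 2 and BAT replicates 1 and 2.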
